A study of Mus musculus with 24 samples.

Results

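Limited medium was compared with standard medium in primary muscle cells of control mouse offspring, those whose dams were fed freely. The samples were chosen by their labels alone: of the 24 arrays of the study, 12 hold control cells, 6 from limited and 6 from standard medium. The cells came from the quadriceps of ICR mice, a strain of outbred mice, and were differentiated into myotubes in culture. Standard medium was a differentiation medium with 5.5 mM glucose and 2% fetal bovine serum. Limited medium, given overnight, had glucose at 0.5 mM and serum at 1%, with glutamine at 1 mM and carnitine at 0.5 mM. Several components therefore differ between the media at the same time, and their effects cannot be told apart. The other 12 arrays hold cells of offspring whose dams received 50% of the control amount of food from day 12.5 of gestation, in the same media, and are used here only for values set beside those of the control cells. Each control array carries a culture number (5, 24, 16, 15, 11 or 10), and every number occurs on 1 standard and 1 limited array. What the number stands for (an animal, a dish or a day of work) is not in the labels. All p-values rest on the spread between the samples, which may in part be technical.

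Cells that run short of glucose or serum are known to respond through a handful of well studied circuits. In the unfolded protein response, poorly folded proteins in the endoplasmic reticulum activate the factors ATF6 and XBP1, which raise chaperones and the machinery that removes misfolded proteins; CCAAT-containing stress elements in the promoters of these genes are their classical binding sites. In the integrated stress response, phosphorylation of the initiation factor eIF2 favours translation of ATF4, whose targets include CHOP (Ddit3), Trib3 and enzymes of amino acid supply. The sterol-regulated SREBP factors drive genes of cholesterol and fatty acid synthesis, the glucose-sensing factor MondoA drives Txnip and Arrdc4, and serum acts through SRF on immediate early and cytoskeletal genes.

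The labelled cell type matched its markers. The 15 measured markers of differentiated myotubes averaged 12.04 (log2 signal) in standard and 12.13 in limited arrays, and those of satellite cells and myoblasts 9.36 in both. The embryonic myosin Myh3 lay between 12.78 and 13.22 on the 12 arrays. Markers of endothelial cells, leukocytes and adipocytes averaged between 4.59 and 5.17 in both media, and none of their 7, 8 and 5 measured genes was called between media. Culture 16 stood apart in connective tissue transcripts: the 8 fibroblast markers averaged 6.46 and 6.82 on its standard and limited arrays, against 5.40 to 5.92 on all others. Its decorin (Dcn) signal was 7.33 and 9.07, against 4.36 to 5.05 elsewhere. The glial cadherin Cdh19 lay at 6.29 and 6.13 in culture 16 and at 5.83 and 6.15 in culture 24, against 3.45 to 3.91 in the other cultures. The part of these transcripts in the results was not tested, and counts without each culture are given with the results. Probes differ in brightness, so these levels are not proportions of cells, and fewer cells of a type cannot be told apart from less RNA per cell.

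The gene with the largest rise, Creld2, carries the endoplasmic reticulum stress element in its promoter. Sites of this kind in chosen genes are shown here, and their part in the response was not tested. The element is CCAAT, 9 further bases and CCACG; its second form is ATTGG, 1 base and CCACG. Both were searched on both strands in the RefSeq promoters of the mouse build GRCm38.p6, windows of 250 bases before and 50 after each annotated start. Capitals mark the matched ends, and each site is written 5′ to 3′ in the direction of the motif. Creld2, a stress-inducible protein of the endoplasmic reticulum, and Herpud1, a membrane component of its degradation machinery, were called. Hspa5 (BiP), Hsp90b1 (GRP94), Dnajc3, Ero1b, Syvn1 and Derl3 are shown because they were higher in limited medium in every culture, and Canx (calnexin) because it carries the element and had a difference of -0.03:
Creld2, chr15:88819520-88819538: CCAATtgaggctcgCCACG
Herpud1, chr8:94386377-94386387: ATTGGgCCACG
Hspa5, chr2:34772025-34772043: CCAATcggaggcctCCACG
Hsp90b1, chr10:86705638-86705656: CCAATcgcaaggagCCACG
Dnajc3, chr14:118937827-118937845: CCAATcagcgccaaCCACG
Ero1b, chr13:12565682-12565700: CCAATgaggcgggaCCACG
Syvn1, chr19:6046532-6046550: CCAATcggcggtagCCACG
Derl3, chr10:75893242-75893260: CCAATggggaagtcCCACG
Canx, chr11:50325800-50325818: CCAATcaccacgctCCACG
All 9 sites shown lie upstream of the start, between position -212 (Hsp90b1) and position -26 (Syvn1). Of the sites shown, those of Creld2, Ero1b and Derl3 read on the strand opposite to the gene. Hsp90b1 holds another match that is not shown, at positions -107 to -89, also on the opposite strand. The 250 bases upstream of the Creld2 start, chr15:88819396-88819645 on the + strand, show the site in its surroundings, with the reverse complement of the element in capitals:
Creld2 promoter: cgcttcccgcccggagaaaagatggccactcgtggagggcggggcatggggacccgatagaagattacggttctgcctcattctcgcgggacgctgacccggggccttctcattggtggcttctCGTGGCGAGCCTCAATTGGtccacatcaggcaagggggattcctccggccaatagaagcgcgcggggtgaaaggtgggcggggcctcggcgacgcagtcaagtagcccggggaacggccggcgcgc

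Across the transcriptome, 76 of 22180 genes (0.343%) differed between limited and standard medium in control cells at an adjusted p under 0.05 by limma with Benjamini-Hochberg adjustment. Of these, 37 (0.167%) rose and 39 (0.176%) fell. Their differences ran from 0.36 to 1.56 on the log2 scale in size, with a median of 0.54, against 0.10 over all genes. The errors given after ± are SEs of this fit, also for genes called only in the paired fit described below, and adjusted p-values are limma's. All 76 had the same sign in 6 of 6 cultures, which 2332 genes (10.5%) had, and for 59 of them the arrays of the media did not overlap, as for 263 genes in all (1.19%). When arrays with the same culture number were treated as pairs, with the number as a block, 551 genes (2.48%) were called, 320 higher (1.44%) and 231 lower (1.04%) in limited medium, and these included all 76. The arrays of every control culture deviated together, with correlations of 0.19 to 0.46. The sizes of both counts rested on individual cultures. Without culture 5 the count of 76 became 10, without culture 10 it was 13, without 15 it was 20, without 16 it was 24, without 11 it was 30 and without 24 it was 49; the paired count of 551 became 121, 110, 121, 431, 125 and 622 in the same order. Leaving out undernourished culture 12 or 8, which enter through the shared spread, gave 35 and 50, and leaving out culture 20 gave 162. The balance of directions depended on scaling. Rises made up 48.7% of calls in the deposited values. After each array was centred on its median over all 41345 probe clusters, they made up 81.5% of 135 calls. This centring moved the median gene by 0.08. Before it, medians of the tested genes alone were 5.98 to 6.07 on standard and 6.01 to 6.04 on limited control arrays. Of the 30 genes described with full values, Agpat2, Srf, Fam241a, Ddx5, Azin1, Gca and Tmem175 were called whichever control culture was left out, and each of the others lost its call without at least 1 culture.

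**Figure D1:**
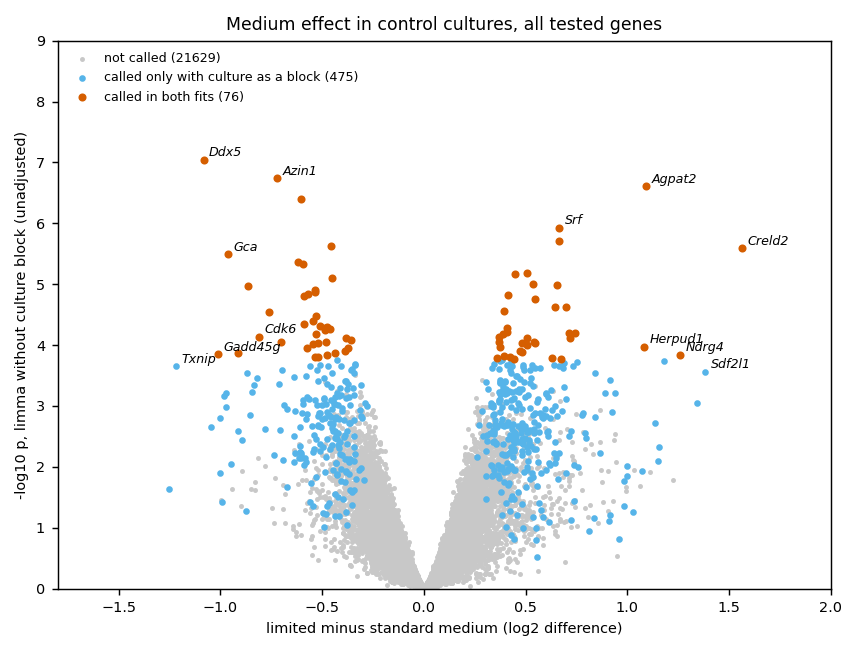
Log2 difference, limited minus standard medium, in control cells (x axis) against -log10 of limma's unadjusted p without the culture block (y axis) for 22180 genes. Orange points are the 76 genes called in both fits, blue points the 475 called only with the culture number as a block, grey points the rest. Orange points lie at 0.36 or more on either side of 0, with 37 to the right and 39 to the left.

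The largest rise was in Creld2. On standard arrays it ran from 8.56 to 9.26 (log2 signal, median 8.86, n = 6) and on limited arrays from 9.64 to 10.97 (median 10.55), so the groups did not overlap. The difference was 1.56 ± 0.26 (SE), 2.95-fold, with adjusted p = 0.00713 by limma. By culture it was 2.21, 1.94, 1.14, 2.09, 0.80 and 1.20 in cultures 5, 24, 16, 15, 11 and 10, so the smallest response was still a rise. Without culture 5 the adjusted p was 0.0782. Herpud1 went from 10.06 to 11.28 (median 10.69) in standard to 10.99 to 12.17 (median 11.80) in limited medium, a difference of 1.08 ± 0.24 (adjusted p = 0.0411). The groups overlapped because culture 11 reached only 10.99 in limited medium, below culture 16 in standard medium; by culture the rise was between 0.42 and 2.02. With culture 11 left out it kept its call (adjusted p = 0.0419), and with any other culture left out the adjusted p lay between 0.0584 and 0.205.

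Of 21 measured folding chaperones of the endoplasmic reticulum, 1 was called without pairing (Creld2) and 2 with it, Creld2 and Sdf2l1, a partner of the BiP chaperone cycle. None of the list fell in either fit. Over all genes 0.343% were called without pairing and 2.48% with it. The list's median difference was 0.55, against 0.01 over all genes, 17 members were higher and 11 were higher in 6 of 6 cultures, against 5.94% of all genes. Sdf2l1 ranged from 7.46 to 8.96 (median 8.02) in standard and 8.17 to 10.05 (median 9.62) in limited medium, with adjusted p = 0.0548 without and 0.0207 with pairing by limma. The oxidoreductase Ero1b (0.87 ± 0.27), the large chaperone Hyou1 (0.82 ± 0.26), Manf (0.78 ± 0.23) and the co-chaperone Dnajc3 (0.73 ± 0.25) were higher in 6 of 6 cultures, with paired adjusted p between 0.0601 and 0.0933. Hspa5, the central chaperone BiP, had a median of 10.13 in standard and 10.80 in limited medium, a difference of 0.70 ± 0.21 with paired adjusted p = 0.0644. Canx (-0.03) and the oxidase Ero1a (-0.26) were among the 4 members with no higher level than in standard medium.

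Of 16 measured genes of degradation from the endoplasmic reticulum, Herpud1 was called in both fits and the ubiquitin ligase Syvn1 (0.94 ± 0.24, adjusted p = 0.0775 without and 0.0189 with pairing) only in the paired fit. Over all genes 0.343% were called without pairing and 2.48% with it. Derl3 (1.03 ± 0.38), the Syvn1 partner Sel1l (0.75 ± 0.21) and the mannosidase-like Edem1 (0.74 ± 0.26) were higher in 6 of 6 cultures, with paired adjusted p of 0.0571, 0.0505 and 0.0867. The other members lay within 0.30 of standard medium, and the list's median was 0.14. Of the 9 sensors and factors of the response, none was called in either fit; Xbp1 was higher by 0.41 ± 0.15 in 6 of 6 cultures (paired adjusted p = 0.0806), and the list's median was 0.07. In the transport list of 32 genes, Get3, the ATPase that delivers tail-anchored proteins to the membrane, was the called member, with a difference of 0.67 ± 0.15 and an adjusted p that rounds to 0.05.

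**Figure D2:**
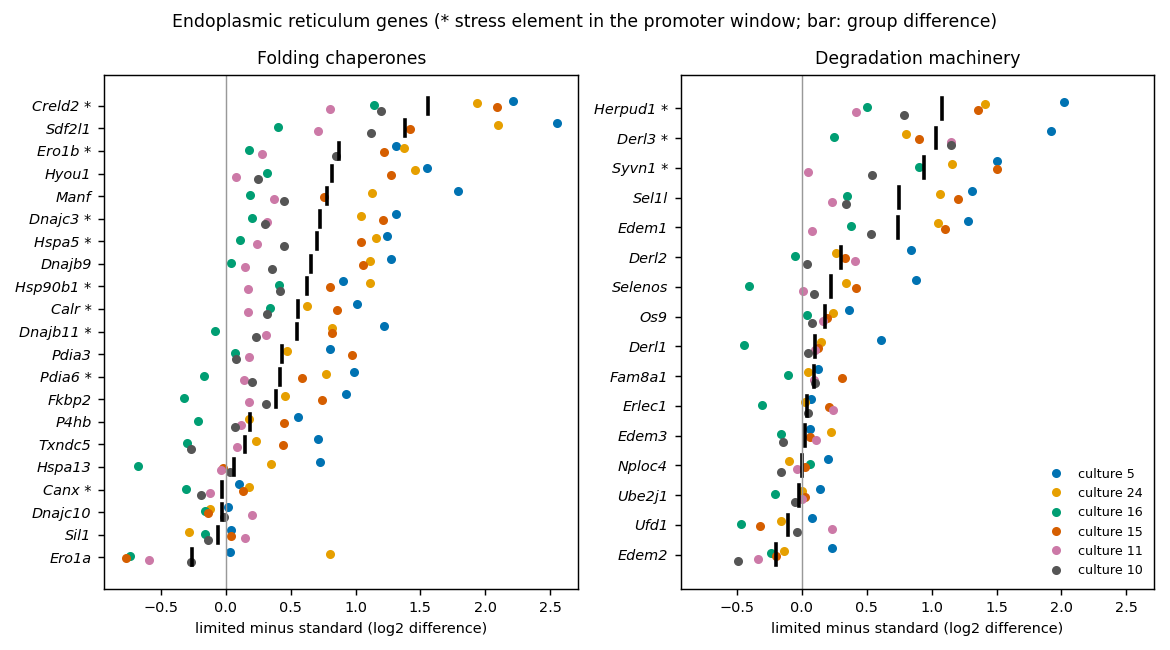
Log2 difference, limited minus standard medium, of folding chaperones (left) and degradation genes (right), with a coloured point per culture and a black bar at the group difference; asterisks mark genes with either form of the stress element in the promoter window. Cultures 5, 24 and 15 lie farthest right for most of the upper genes, and culture 16 lies near or below 0 for many lower ones.

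The response of these genes differed between cultures. Culture 5 had the largest median difference of the chaperone list, 0.99. Cultures 24 and 15 followed with 0.80 each, and cultures 10, 11 and 16 had 0.25, 0.17 and 0.04. Culture 16, with the smallest median, is also the culture with the high fibroblast markers, whose part in this was not tested. Culture 24, with a median of 0.80, had the next highest fibroblast markers, at 5.92 in standard and 5.83 in limited medium. The chaperone list averaged 9.78 in standard medium in culture 16, the highest of the cultures, and 9.80 in limited medium. In culture 5 it averaged 9.09, the lowest, and 10.11. A standard level enters the difference itself. The spread between cultures was wider for the integrated stress response. Its 32 measured genes had a median difference of 1.03 in cultures 5 and 24, 0.30 in 15, 0.23 in 10, -0.32 in 16 and -0.44 in 11. Over the group the median was 0.27 with 29 members higher, but only 3 were higher in 6 of 6 cultures and none was called without pairing. Of all genes, 51.7% were higher, and 5.94% were higher in 6 of 6 cultures.

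Among these genes Ddit3, which encodes the stress factor CHOP, rose in the paired fit only. It was at 7.07 to 8.36 (median 7.55) in standard and 7.27 to 9.61 (median 8.88) in limited medium, a difference of 1.13 ± 0.33 with adjusted p = 0.119 without and 0.029 with pairing. The groups overlapped: culture 11 went only from 7.09 to 7.27 while culture 24 went from 7.07 to 9.61. Trib3, a pseudokinase induced by ATF4 and CHOP, was not called and differed in sign between cultures. In standard medium it was lowest in cultures 24 and 5, at 7.10 and 7.13, and between 7.64 and 8.59 in the others. In limited medium it lay between 8.41 and 9.10 in 5 cultures and at 7.08 in culture 11. The change was 1.98 in culture 5 and 1.96 in culture 24, but -0.17 in culture 16 and -0.55 in culture 11, and the paired adjusted p was 0.208.

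Fgf21, a hormone that muscle secretes under such stress, followed the same order. Cultures 5 and 24 had differences of 2.27 and 1.90, cultures 16 and 11 had -1.25 and -2.22, and the group difference was 0.21 ± 0.48. Its standard levels were 8.79 and 8.74 in cultures 5 and 24, and 10.38 to 11.48 in the other cultures. A low standard level enters the difference itself, so the levels and the differences are not separate measurements. Asns, the asparagine synthetase, likewise ran from 0.80 in culture 5 to -1.03 in culture 11, with a group difference of -0.11. Chac1, a glutathione-degrading enzyme, had 0.83 ± 0.28 (paired adjusted p = 0.0708) and the cystine transporter Slc7a11 0.86 ± 0.47 (0.326). The 18 cytosolic tRNA synthetases, classical ATF4 targets, had no called member and a median of 0.07; by culture the median was 0.46 in 5, 0.54 in 24, -0.38 in 16 and -0.26 in 11, with the same signs as the list above.

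**Figure D3:**
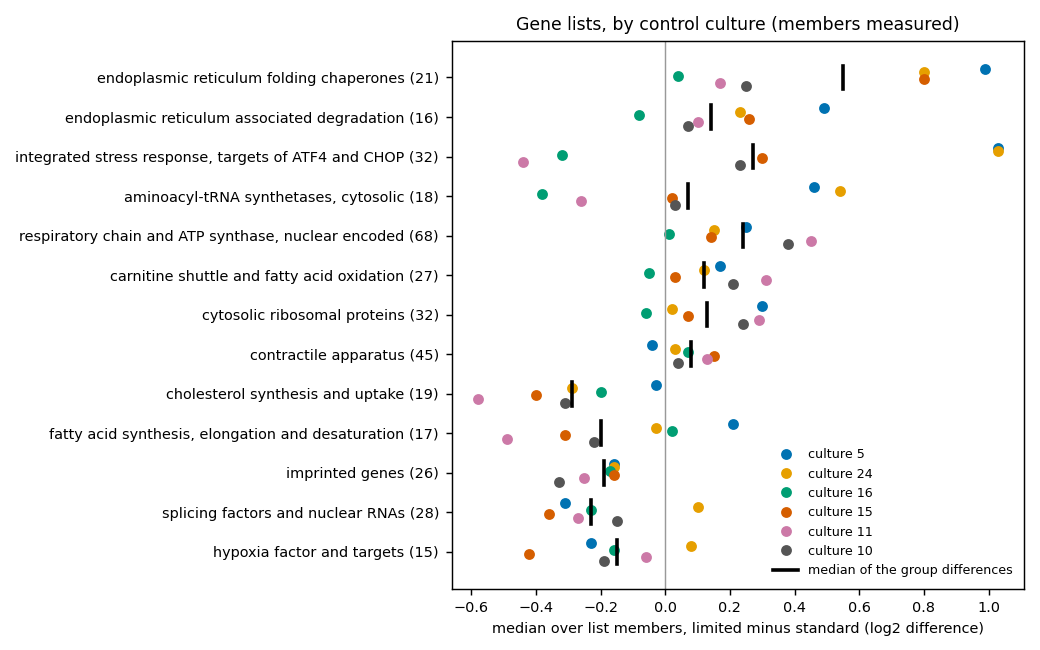
Median log2 difference, limited minus standard medium, over the measured members of 13 gene lists (number in brackets), by culture (coloured points) and as the median of the group differences (black bars). The integrated stress response list spreads from -0.44 in culture 11 to 1.03 in cultures 5 and 24, whereas the imprinted genes stay between -0.33 and -0.16.

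Of 21 genes of glycerolipid synthesis and breakdown, Agpat2 alone was called in either fit. Of 17 genes of fatty acid synthesis, Slc13a5 was called in both and Elovl6 with pairing. Over all genes 0.343% were called without pairing and 2.48% with it. Agpat2, which makes phosphatidic acid for glycerolipid synthesis, ran from 7.25 to 7.89 (median 7.54) in standard and from 8.40 to 8.92 (median 8.66) in limited medium, without overlap. The difference was 1.09 ± 0.16, 2.13-fold, with adjusted p = 0.00182 by limma, and it was 0.70 to 1.39 by culture. Slc13a5, a plasma membrane citrate transporter, was dim in standard medium (5.33 to 5.70, median 5.42) and reached 5.67 to 6.57 (median 6.22), a difference of 0.71 ± 0.15 (adjusted p = 0.0357). Its groups overlapped narrowly. Elovl6, the elongase of saturated fatty acids, fell in the paired fit from a median of 7.59 to 6.65 (-0.92 ± 0.27, adjusted p = 0.134 without and 0.0121 with pairing) and was lower in 6 of 6 cultures. The desaturases Fads2 (-0.52 ± 0.22) and Fads1 (-0.40 ± 0.19) were also lower in every culture, with paired adjusted p of 0.063 and 0.111. The synthase Fasn had a difference of -0.00 and the desaturase Scd1 of 0.03, with cultures on both sides of 0.

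Of 19 measured genes of synthesis and uptake, none was called without pairing; with pairing 4 fell and 1 rose, beside 1.04% and 1.44% of all genes. The sterol dehydrogenase Nsdhl fell in the paired fit from a median of 10.80 (10.13 to 10.98) to 9.65 (9.33 to 10.32), with culture differences between -1.46 and -0.39 and adjusted p = 0.0552 without and 0.00634 with pairing. Msmo1 (-0.52 ± 0.15), Sc5d (-0.46 ± 0.15) and the synthase Hmgcs1 (-0.45 ± 0.16), which feeds the pathway, had paired adjusted p of 0.0454, 0.0312 and 0.0446. Ebp, the isomerase of a middle step, went the other way in every culture, by 0.55 to 0.94 (0.67 ± 0.22, adjusted p = 0.179 without and 0.00126 with pairing). The list's median was -0.29, and 16 members were lower, 9 of them in 6 of 6 cultures against 4.58% of all genes. By culture the median ran from -0.03 in culture 5 to -0.58 in culture 11, so culture 5, highest for chaperones, was nearest to 0 here. The sequence TCACNCCAC of the sterol response element was in the promoter window of 1 of 15 genes of the list with a promoter in the table, against 1.44% of all 27025 promoters.

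Of 8 genes of the MondoA and arrestin-domain list, Txnip and Arrdc3 fell in the paired fit, beside 1.04% of all genes. None was called without pairing. Txnip, an inhibitor of thioredoxin and of glucose uptake, ran from 7.01 to 8.48 (median 7.47) in standard and from 6.00 to 7.09 (median 6.10) in limited medium. Its culture differences ran from -2.33 in culture 24 to -0.23 in culture 11, the group difference was -1.22 ± 0.28, and the adjusted p was 0.0506 without and 0.0219 with pairing. Arrdc3, a related arrestin-domain protein, differed by -0.97 ± 0.26 (adjusted p = 0.0939 and 0.0148), with culture differences from -1.81 to -0.29. The other members lay between -0.21 and 0.13, Arrdc4 among them at -0.00. Of 22 genes of glucose uptake and glycolysis, the muscle phosphofructokinase Pfkm rose (0.43 ± 0.15) and the liver form Pfkl fell (-0.59 ± 0.21) in the paired fit (adjusted p = 0.0342 and 0.0323), and the list's median was 0.01. Over all genes 1.44% rose and 1.04% fell in that fit. Among 13 genes of glycogen metabolism, Ppp1r3c, which targets a phosphatase to glycogen, rose in the paired fit (0.72 ± 0.39, paired adjusted p = 0.00979) and was higher in 6 of 6 cultures; its level in standard medium varied from 5.79 to 7.44. Phkg2, a catalytic subunit of phosphorylase kinase outside that list, was called in both fits, with a difference of 0.51 ± 0.11 and adjusted p = 0.0398.

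Among 12 genes of glutamine uptake and metabolism, Slc38a6, an amino acid transporter, fell in the paired fit, beside 1.04% of all genes. It ran from 7.18 to 8.21 (median 7.69) in standard and from 6.61 to 7.32 (median 6.82) in limited medium (-0.82 ± 0.20, adjusted p = 0.0618 without and 0.0136 with pairing). Of 27 genes of the carnitine shuttle and fatty acid oxidation, 3 rose in the paired fit: the thiolase Acaa2 (0.69 ± 0.16), the dehydrogenase Acadvl (0.34 ± 0.10) and the carnitine acetyltransferase Crat (0.32 ± 0.09), with paired adjusted p of 0.0118, 0.0395 and 0.0488. Of 68 nuclear genes of the respiratory chain and ATP synthase, 4 rose in that fit: Ndufb11 of complex I (0.84 ± 0.20), Atp5e of the ATP synthase (0.62 ± 0.16), Cyc1 (0.44 ± 0.11) and Cox4i1 (0.44 ± 0.11). Over all genes 1.44% rose in that fit. The respiratory list's median was 0.24, 64 of its genes were higher and 21 were higher in 6 of 6 cultures. Over all genes 51.7% were higher, and 5.94% were higher in 6 of 6 cultures. By culture the median ran from 0.01 in culture 16 to 0.38 in 10 and 0.45 in 11, so culture 11, lowest for the ATF4 list, was highest here.

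Among regulators of mitochondria, Esrra, a nuclear receptor for oxidative genes, rose in the paired fit (0.37 ± 0.09, paired adjusted p = 0.0328) and the coactivator Ppargc1b fell (-0.45 ± 0.12, 0.0488), while Ppargc1a had 0.10 ± 0.23. Among 29 genes of pyruvate entry, pyruvate dehydrogenase and the citrate cycle, the dehydrogenase Idh2 rose in the paired fit (0.42 ± 0.11, 0.0288). No other gene of that list was called. Among 32 cytosolic ribosomal proteins, Rplp0 (0.46 ± 0.12), Rps7 (0.45 ± 0.13) and Rps19 (0.39 ± 0.12) rose in the paired fit, beside 1.44% of all genes. Of the 32, 27 were higher, beside 51.7% of all genes, with a median of 0.13. Ribosomal protein genes have many processed copies, so these signals are uncertain. Of 30 proteasome subunits, Psmd14, the deubiquitinase of the lid, fell in both fits, from a median of 8.52 to 8.14 (-0.49 ± 0.10, adjusted p = 0.0348). The share of all genes that fell was 0.176% without pairing and 1.04% with it.

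Of 45 measured contractile genes, 5 rose in the paired fit, beside 1.44% of all genes, and none was called without pairing: the fast myosin Myh4 (0.96 ± 0.65), Myoz1 (0.91 ± 0.49), the fast myosin-binding protein Mybpc2 (0.74 ± 0.33), the calcium store protein Casq1 (0.56 ± 0.53) and the fast troponin Tnni2 (0.52 ± 0.16). All but Myh4, at -0.10 in culture 5, were higher in 6 of 6 cultures. Levels differed widely between cultures, and Myh4 ran from 6.15 to 10.86 on standard arrays alone. Paired adjusted p lay between 0.0148 and 0.0488. The SEs above are those of the fit without pairing. With pairing the SE was 0.24 for Myh4 and 0.11 for Casq1. Ckm, the muscle creatine kinase, had 0.43 ± 0.17 (paired adjusted p = 0.0984), and Acta1 0.13 ± 0.08. The list's median was 0.08, with 29 members higher and 16 lower, and no gene of the 16 myogenic regulators was called in either fit.

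Of 24 serum response and immediate early genes, 1 was called without pairing, beside 0.343% of all genes. This was Srf, which encodes the serum response factor. It ran from 8.13 to 8.77 (median 8.49) in standard and from 9.02 to 9.20 (median 9.13) in limited medium, and did not overlap. The difference was 0.66 ± 0.10, 1.58-fold, with adjusted p = 0.0052 by limma, and by culture it lay between 0.43 and 0.93. Its promoter holds 2 matches to the CArG box, the sequence its own product binds, at positions -82 to -73 and -62 to -53, in capitals here (chr17:46556163-46556412, the gene on the - strand):
Srf promoter: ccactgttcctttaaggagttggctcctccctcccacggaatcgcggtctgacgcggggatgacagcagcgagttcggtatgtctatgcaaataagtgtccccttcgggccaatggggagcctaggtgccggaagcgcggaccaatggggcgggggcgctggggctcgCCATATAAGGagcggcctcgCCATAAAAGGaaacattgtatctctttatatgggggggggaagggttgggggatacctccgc
Such a match was in 1.81% of all promoters and in 3 of 19 of this list. Among the other members, Egr1 (-0.71 ± 0.21) and Ccn1 (-0.59 ± 0.20), early targets of serum, fell in the paired fit (adjusted p = 0.024 and 0.0236), while Klf4 had 0.67 ± 0.21 (0.0652) and Fos -0.37 ± 0.15 (0.109). Over all genes 1.04% fell in that fit. The list's median was -0.06 and became 0.01 after centring each array.

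Several called rises were in genes outside these pathways. Ndrg4, of the N-myc downstream-regulated family, ran from 7.32 to 9.15 (median 8.76) in standard and from 9.39 to 10.14 (median 9.82) in limited medium, without overlap. Its difference was 1.26 ± 0.28 with adjusted p = 0.0482, and 0.83 to 2.08 by culture. Leaving out any of the 6 cultures raised the adjusted p to between 0.0605 and 0.142. Scx, the tendon transcription factor scleraxis, went from a median of 9.42 (8.74 to 9.79) to 9.99 (9.77 to 10.70), a difference of 0.74 ± 0.15 with adjusted p = 0.0357. Of the other 5 tenocyte markers measured, none was called, and they lay between -0.06 and 0.11; the marker list averaged 5.72 (5.50 to 5.86) in standard and 5.86 (5.80 to 5.93) in limited arrays with Scx included. Hs3st3b1, a heparan sulfate sulfotransferase, had medians of 6.80 and 7.49 (0.70 ± 0.13, adjusted p = 0.0213) and no overlap, although the difference was only 0.08 in culture 11.

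Other called rises were in Ubald1, Fam241a, Card19, Uap1l1, Maf1 and Tesk1. Ubald1 (0.72), Fam241a (0.66), Card19 (0.65), a protein with a caspase recruitment domain, and Uap1l1 (0.63) had adjusted p of 0.0372, 0.00713, 0.0139 and 0.0493. Maf1, the repressor of RNA polymerase III, rose (0.64 ± 0.12, medians 7.41 and 7.95, adjusted p = 0.0213), and Tesk1, a kinase of the actin regulator cofilin, rose with it (0.55 ± 0.10, medians 8.09 and 8.58, adjusted p = 0.0166). Neither Maf1 nor Tesk1 overlapped between media. Among the 20 further named genes that rose, by 0.36 to 0.54, were the deacetylase Sirt2 (0.38, from a median of 10.64 to 11.05), the terminal nucleotidyltransferase Tent4a (0.50), the actin-associated Afap1l1 (0.54), the deubiquitinase Otud3 (0.45), the mitochondrial ribosomal protein Mrps24 (0.48), the mediator subunit Med28 (0.41), the G protein chaperone Ric8a (0.40) and Ubxn6 (0.39), a cofactor of the p97 ATPase.

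**Figure D4:**
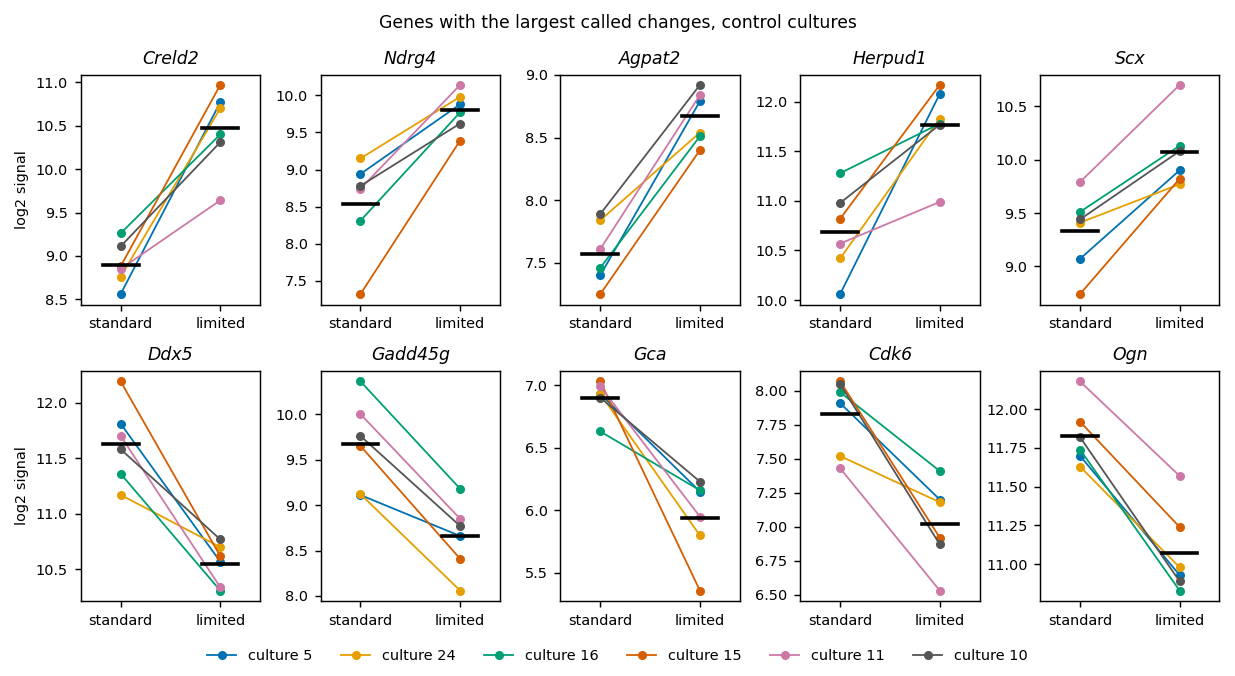
Log2 signal of the 5 genes with the largest called rise (top) and the 5 with the largest called fall (bottom) in standard and limited medium; each line joins the arrays of a culture, and black bars are means of 6 arrays. Every line rises in the top row and falls in the bottom row, with overlap between media for Herpud1, Scx and Gadd45g.

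The largest fall was in Ddx5, an abundant RNA helicase that acts in splicing and as a coactivator of MyoD. It ran from 11.17 to 12.19 (median 11.64) in standard and from 10.31 to 10.77 (median 10.60) in limited medium, without overlap. The difference was -1.08 ± 0.15, a 2.12-fold fall, with adjusted p = 0.00182, and it ranged from -1.57 in culture 15 to -0.47 in culture 24. The list of splicing and nuclear RNA genes to which it belongs had a median of -0.23. Of 28 measured, 24 were lower, while 51.7% of all genes were higher. The long noncoding RNA Malat1 (-0.37 ± 0.10) and Pnisr (-0.48 ± 0.15) fell in the paired fit (adjusted p = 0.0427 and 0.0488). Culture 24 was the exception, with a list median of 0.10 and differences of 0.03 and 0.09 for these genes. Rbm15b, an RNA-binding protein of the methylation machinery, rose in the paired fit by 1.18 ± 0.27 (adjusted p = 0.0506 without and 0.017 with pairing). Over all genes 1.04% fell and 1.44% rose in that fit. Hnrnpm, a splicing regulator outside that list, fell in both fits (-0.37 ± 0.08, adjusted p = 0.0421).

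Gadd45g, a growth arrest gene, had medians of 9.71 and 8.72 (-1.01 ± 0.23, adjusted p = 0.0477) and overlapped, with culture 16 at 9.18 in limited medium and cultures 5 and 24 at 9.11 and 9.12 in standard medium. Its call was lost without any 1 of the 6 cultures, with adjusted p from 0.0605 to 0.139. Cdk6, a kinase of the G1 phase, went from 7.43 to 8.07 (median 7.95) to 6.53 to 7.41 (median 7.05), a difference of -0.81 ± 0.17 (adjusted p = 0.0372). No other of 28 cell cycle genes was called, and cyclin D1 (Ccnd1) had -0.52 ± 0.53. The share called over all genes was 0.343% without pairing and 2.48% with it. Azin1, which spares ornithine decarboxylase from degradation, fell evenly: its culture differences lay between -0.87 and -0.55, and its medians were 10.22 and 9.48 (-0.72 ± 0.10, adjusted p = 0.00182). Odc1 itself had -0.20 ± 0.10 (adjusted p = 0.405). Cnot6, a catalytic deadenylase, fell from 8.30 to 7.74 in median (-0.59 ± 0.10, adjusted p = 0.00936), and its paralog Cnot6l fell in the paired fit only (-0.34 ± 0.13, paired adjusted p = 0.0441).

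Gca, the calcium-binding protein grancalcin, ran from 6.63 to 7.03 (median 6.93) in standard and from 5.36 to 6.23 (median 6.05) in limited medium (-0.96 ± 0.16, adjusted p = 0.00797). Ogn, the matrix proteoglycan osteoglycin, was bright and fell from a median of 11.78 (11.63 to 12.18) to 10.95 (10.83 to 11.57), with culture differences between -0.94 and -0.61 and adjusted p = 0.0238. Tmem175, a lysosomal potassium channel, fell from a median of 7.43 to 6.83 (-0.60 ± 0.09, adjusted p = 0.00222). It was the gene called without pairing among 20 for autophagy and lysosomes, beside 0.343% of all genes. Lpp, a focal adhesion protein, had -0.70 ± 0.15 (adjusted p = 0.0385) with its brightest cluster and -0.39 as the mean of its clusters, no longer past the threshold. The nuclear export receptor Xpo1 had medians of 9.08 and 8.41 (-0.55 ± 0.11, adjusted p = 0.0304), and culture 11 was lowest in standard medium at 8.80.

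Other called falls were in the tRNA methyltransferase Trmt5 (-0.59), the acetyl-lysine reader Yeats2 (-0.59), the RNA-binding ubiquitin ligase Dzip3 (-0.55), Plekhm3 (-0.54) and the zinc finger factor Hivep2 (-0.54), with adjusted p from 0.0157 to 0.0482. Further called falls included Platr14, a noncoding RNA (-0.91), the topoisomerase Top2b (-0.38), the origin recognition subunit Orc5 (-0.45), the silencing adaptor Tnrc6a (-0.49), the RNA methyltransferase Nsun6 (-0.51) and the PARP cofactor Hpf1 (-0.48). A further 9 of the 76 called genes carry symbols of predicted genes, clones, pseudogenes or small RNAs and are counted here without names.

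Of the 475 genes called only with pairing, some outside the lists were among the largest differences and were chosen by size after their values were seen. They included Padi2, a peptidylarginine deiminase (1.34 ± 0.36, from 7.08 to 9.63 in standard medium, adjusted p = 0.0904 without and 0.00126 with pairing), the hydrolase Cmbl (1.15 ± 0.37, 0.00126 paired), the keratin Krt80 (1.15 ± 0.40, 0.00979 paired), Ndrg2 (1.00 ± 0.38, 0.00757 paired) and the surface protein Cd24a (0.98 ± 0.46, 0.00217 paired). Ndrg2 belongs to the same family as Ndrg4 and had culture differences from 0.39 to 1.75. Falls included the guanylate-binding proteins Gbp4 (-1.25 ± 0.52), Gbp9 (medians 9.42 and 8.53) and Gbp8 (-0.99 ± 0.45), with paired adjusted p of 0.0462, 0.0136 and 0.0399. These paralogs share sequence, so which of them the probes read is uncertain. The myelin protein gene Pmp22 (-0.98 ± 0.25, 0.0376 paired) and the retinal reductase Dhrs3 (-0.88 ± 0.43, 0.0153 paired) followed.

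The imprinted genes, expressed from the allele of a single parent and many of them linked to growth, had medians between -0.33 and -0.16 in every culture. Of 26 measured, 22 were lower over the group, 8 of them in 6 of 6 cultures, with a median of -0.19. Of all genes, 51.7% were higher, and 4.58% were lower in 6 of 6 cultures. None of the imprinted genes was called without pairing, and 6 fell with it, beside 1.04% of all genes: the zinc finger factor Plagl1 (-0.69 ± 0.24), Impact (-0.45 ± 0.12), Zim1 (-0.44 ± 0.23), the noncoding RNA Airn (-0.42 ± 0.11), Peg10 (-0.41 ± 0.15) and Sgce (-0.36 ± 0.13). Paired adjusted p lay between 0.0303 and 0.0385. Plagl1 ran from 7.42 to 8.19 in standard and from 6.71 to 7.51 in limited medium with culture differences between -0.90 and -0.52. Mest had medians of 9.16 and 8.06 and was not called (paired adjusted p = 0.13), with culture differences from 0.33 in culture 5 to -1.93 in culture 15, and Igf2 lay at -0.07. Hypoxia targets included 3 paired falls of 15 genes, beside 1.04% of all genes, in the carbonic anhydrase Car9 (-0.62 ± 0.21) and the collagen-modifying enzymes P4ha1 (-0.50 ± 0.14) and Plod2 (-0.39 ± 0.13). In the insulin and IGF list of 22 measured genes, the receptor Igf1r fell (-0.58 ± 0.16) and the binding protein Igfbp6 rose (0.57 ± 0.21) in the paired fit (adjusted p = 0.0407 and 0.0242). Over all genes 1.04% fell and 1.44% rose in that fit.

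Lists with fewer calls complete the account. No cytosolic heat shock gene of 14 was called in either fit, and the near-identical Hspa1b (1.11 ± 0.41) and Hspa1a (0.58 ± 0.39) were higher in 5 of 6 cultures, with a signal that cannot be assigned to either copy. In the paired fit, the clock factor Arntl (0.38), the ubiquitin ligase component Fbxo31 (0.53), the autophagosome protein Map1lc3a (0.54), the death receptor Eda2r (0.39) and the ribosome assembly factor Bop1 (0.31) rose. No member of the AMPK, NRF2, interferon or neuromuscular junction lists was called in either fit. The interferon list did not hold the guanylate-binding proteins Gbp4, Gbp8 and Gbp9, which fell in the paired fit as given above.

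The cells of undernourished offspring gave 12 further arrays under the same media, whose spread entered the same fit. There 324 genes (1.46%) were called between media, and all 76 genes called in control cells had the same direction, against 64.9% of all genes. Of the 76, 44 were also called there in the same direction, which is 57.9% of the 76 and 13.6% of the 324. The median rise of the 37 genes was 0.51 in control and 0.37 in undernourished cells, and the median fall of the 39 was -0.54 and -0.49. The genes were chosen in control cells, so these sizes cannot be compared as a test. Creld2 had 1.56 and 1.70, Herpud1 1.08 and 1.50, Agpat2 1.09 and 0.86, and Ddx5 -1.08 and -0.67. Scx, with 0.74 in control cells, had 0.19 in undernourished cells, and Med28 0.41 and 0.03.

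The test of the difference between maternal diets called 0 genes by limma (0%), with 643 of 22180 at an unadjusted p under 0.05, 9 of them among the 76. For Scx the difference of the medium effect was -0.55 ± 0.22, with unadjusted p = 0.0179 and an adjusted p of 1. No gene's response is therefore shown to be particular to control cells. In undernourished cells, 13 of 21 chaperones and 10 of 32 integrated stress response genes rose, against 1 and 0 in control cells. Over all genes 0.726% rose in undernourished and 0.167% in control cells, so the counts of the lists cannot be set against each other directly. The list medians were 0.80 and 0.75 against 0.55 and 0.27; no member's difference between diets passed the test.

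**Figure D5:**
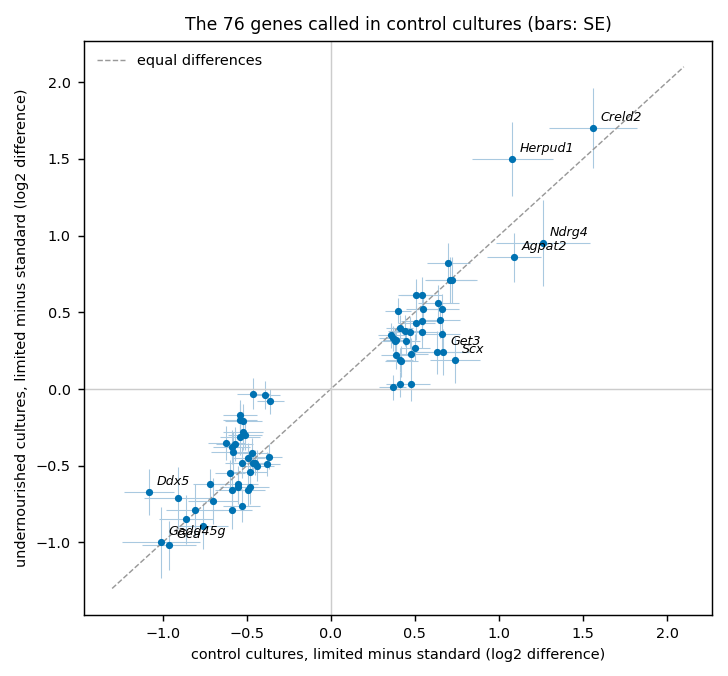
Log2 difference, limited minus standard medium, of the 76 genes called in control cells, in control (x axis) and undernourished cells (y axis), with bars of 1 SE from the limma fit; the dashed line marks equal differences. All 76 points lie in the quadrants of equal direction, and 54 are smaller in undernourished cells.

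The stress elements shown at the start were counted over all promoters. The main form was in 37 of 27025 promoters (0.137%) and in 8 of the 17 chaperone genes with a promoter in the table (47.1%). It was in 2 of 14 degradation genes, Syvn1 and Derl3, and the second form was in Herpud1 and the chaperone Dnajb11 among 12 genes in all (0.0444%). Over the 29 tested genes with the main form the median difference was 0.06, and 10 of them belong to the lists above. Of those 10, Canx had -0.03 and the others lay between 0.42 (Pdia6) and 1.56 (Creld2). The rest of the 29 ran from -0.50 to 0.60. In the paired fit 3 of the 29 rose and 0 fell, beside 1.44% and 1.04% of all genes. The element was thus present in genes with and without a higher level. The ATF4 core TGATGNAA was in 9 of 28 integrated stress response promoters (32.1%), against 4.51% of all, among them Trib3, Chac1, Slc7a11, Asns and Fgf21, whose differences changed sign or spread widely between cultures. These matches describe the letters in the windows and show no binding. The median GC content of the 250 bases upstream of the start was 63.6% for called genes that rose and 58.4% for called genes that fell, against 55.6% for all tested genes.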

How the data were processed

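RNA of 24 muscle cell cultures was labelled with biotin and read on Affymetrix arrays. The authors deposited log2 expression values, made with RMA in Affymetrix Expression Console per the submitters' processing notes. The log base was taken from the range of the values, 1.69 to 14.1. The sources used here name no tool version and no annotation build. RMA gives no counts, so precision rests on the number of arrays. Of 41345 probe clusters, 23521 carried 1 gene symbol, 1814 several and 16010 none; per gene the cluster with the highest mean over 24 arrays was kept, leaving 22180 genes, 1082 of which had more than 1 cluster. limma 3.58.1 in R 4.3.3 was fitted to all 24 arrays in 4 groups, with Benjamini-Hochberg adjustment over all genes and a threshold of 0.05. The second fit added the culture number as a block, because each control pair deviated together (correlations of 0.19 to 0.46); in undernourished cells the correlations were -0.05 to 0.56. The fit was tested on simulated data, where without the block it recovered 65.0% of changes of 0.5 and 96.0% of changes of 1. With the block it recovered 66.0% and 96.0%. False calls were 2 without the block and 10 with it. The simulation gave every gene the same culture correlation, which real genes need not share. Genes described with full values were the 15 largest called rises and 15 largest falls that reached the median level of all tested genes, 6.02, on average in the medium where they were higher, leaving out symbols of predicted genes, clones, pseudogenes and small RNAs; other genes are members of the lists or, where stated, were chosen by size. The samples, lists and tests were chosen with earlier results of these data known. Alternatives were other scalings, spread models, gene summaries and left-out cultures. Promoters are RefSeq's, present for 16990 of the tested genes.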

Additional observations from a re-analysis of the deposited data

Results flagged for a closer look

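Of 90 sets of 6 values examined for the 30 genes described with full values, 5 held a value far from the others by Dixon's test, close to the 1 in 20 that chance gives. Herpud1 was at 10.99 in culture 11 in limited medium, where the other cultures lay between 11.77 and 12.17. Dzip3 was at 8.72 in culture 5 in standard medium, against 8.21 to 8.40. Xpo1 was at 8.80 in culture 11 in standard medium, against 9.06 to 9.13. Gca was at 6.63 in culture 16 in standard medium, against 6.90 to 7.03. For Gadd45g the difference between media was -0.45 in culture 5, against -1.24 to -0.99 in the others.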

How the results depend on the processing

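No gene described with full values changed direction under any alternative run. For many alternatives this was fixed in advance. All 76 called genes had the same sign in 6 of 6 cultures, so leaving out a control culture could not reverse them. Fits that changed only the spread kept the same differences. The count of 76 genes became 59 on the 12 control arrays alone, 81 after quantile normalization, 72 with the mean of a gene's clusters, 58 with a trended robust spread and 86 with the title's serial number as a covariate. It became 551 with the culture number as a block, 443 with it as a random block, 765 with the block on the control arrays alone, 275 with array weights, 135 after centring, 149 when genes below the median level were left out, 253 at an adjusted p under 0.1 and 47 at a difference of at least 0.5. With 1 culture or array left out it lay between 10 and 162. Among single arrays, chosen after seeing the data, it was 34 without standard 5, limited 5 or limited 16, 120 without standard 24, 157 without standard 16, 16 without standard 15 or limited 10, 121 without limited 15 and 40 without standard 11. The paired count of 551 became 121 without culture 5 or 15, 125 without 11, 110 without 10, 431 without 16 and 622 without 24, and was 571 after quantile normalization and 852 after centring, alternatives also chosen after seeing the data. The undernourished count of 324 became 1007 with the block, 822 with the random block, 304 after quantile normalization and 257 after centring. The difference between diets called 0 genes in every fit run, with 601 to 1147 genes at an unadjusted p under 0.05. The cause of these changes was not tested. Centring moved list medians near 0 across it: the serum response list from -0.06 to 0.01, insulin and IGF signalling from -0.03 to 0.04, and the cell cycle list from -0.05 to 0.02. On the 12 control arrays alone 35 of the 76 kept their call, with Gadd45g, Get3, Hivep2, Plekhm3, Scx, Tesk1, Uap1l1 and Ubald1 among those lost.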
